A study of Mus musculus with 6 samples.

Results

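The core circadian clock of the liver was described from 10 genes, chosen by name: Arntl, Clock, Npas2, Per1, Per2, Per3, Cry1, Cry2, Nr1d1 and Nr1d2. All 10 were found among the 54320 genes of the tables. Livers of 6 C57BL/6 mice were profiled by RNA sequencing, 3 per group. Mice of the group called flox had loxP sites in both alleles of Elavl1, which encodes the RNA-binding protein HuR (HuR flox/flox). Mice of the group called HKO had the same alleles and a single Cre transgene under the albumin promoter (HuRflox/flox Alb-Cre+/-), a promoter active in hepatocytes, so HuR of blood-derived and vascular liver cells is not targeted. All mice, controls included, were on a diet that the labels name MCD for 3 weeks and were 11 weeks old at sacrifice, so no group without this diet was compared. No source used here gives the hour of sacrifice. Levels are in FPKM, which scales reads to gene length and library size.

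In the clock of mouse cells, the transcription factors BMAL1 (made from Arntl) and CLOCK, or its paralog NPAS2, bind E-box sequences as pairs and switch on the Per, Cry and Nr1d genes. PER and CRY proteins then block BMAL1 and CLOCK, while the heme receptors REV-ERB alpha and beta (Nr1d1 and Nr1d2) repress Arntl, Npas2 and Clock, and Cry1 as well. In the liver of mice kept in light and dark, Nr1d1 peaks near the middle of the light phase, Nr1d2, Per3 and the output gene Dbp later in the light phase, Per1 and Per2 around nightfall, Cry1 late in the night and Arntl, Npas2 and Clock around dawn. Feeding time and glucocorticoids shift or add to these rhythms in the liver.

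The stretches before the annotated start are shown for Cry1 and Nr1d1, the tested members with the highest and lowest log2 fold change on the log2(FPKM + 0.5) scale, and for Per3, the member whose value was nearest to 0. By other measures other members led Cry1: the ratio of group means was higher for Arntl and Npas2, and Per2 had the smaller p. Capitals mark the E-box CACGTG, the related E-prime-box CACGTT and the D-box TTANGTAA, the element bound by DBP and its relatives, searched on both strands. The sequences are from RefSeq on GRCm38.p6, the 250 bases before the start, written along the strand of the gene, which is minus for all of them.
Cry1 (chr10:85185055-85185304): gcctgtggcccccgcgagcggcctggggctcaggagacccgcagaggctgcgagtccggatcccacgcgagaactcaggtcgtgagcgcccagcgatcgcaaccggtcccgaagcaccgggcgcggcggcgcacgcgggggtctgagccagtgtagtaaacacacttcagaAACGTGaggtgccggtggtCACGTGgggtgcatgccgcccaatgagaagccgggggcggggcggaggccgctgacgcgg
Nr1d1 (chr11:98775378-98775627): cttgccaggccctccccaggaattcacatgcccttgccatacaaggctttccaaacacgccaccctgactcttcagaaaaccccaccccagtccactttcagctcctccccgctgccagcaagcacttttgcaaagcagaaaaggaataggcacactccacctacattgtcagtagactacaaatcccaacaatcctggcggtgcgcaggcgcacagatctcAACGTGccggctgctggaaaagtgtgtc
Per3 (chr4:151044666-151044915): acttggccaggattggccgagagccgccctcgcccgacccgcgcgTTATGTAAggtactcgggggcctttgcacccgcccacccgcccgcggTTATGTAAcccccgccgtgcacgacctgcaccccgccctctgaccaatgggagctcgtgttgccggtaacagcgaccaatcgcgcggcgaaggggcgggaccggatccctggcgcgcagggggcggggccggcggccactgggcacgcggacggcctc
Cry1 held an E-prime-box that began 79 bases before the start and an E-box at 60 bases, Nr1d1 an E-prime-box at 28 bases and Per3 a pair of D-boxes at 205 and 158 bases. RefSeq windows were matched for 9 of the 10 members, all but Per2. An E-box was found in 2 of these 9 (Cry1, and Per1 at 166 bases), an E-prime-box in 3 (Cry1, Nr1d1 and Cry2, in Cry2 at 166 bases) and a D-box in 1. Of all 32851 windows of this length, 6.02% held an E-box, 3.85% an E-prime-box and 2.06% a D-box. These shares count single windows, whereas the 9 members had 13 windows and each was counted if any of its windows held the letters. The letters TAGGTCA, the core of the element bound by REV-ERB receptors, were in no window of these 9 members and in 2.23% of all windows. These matches describe the letters and are not evidence of binding. Variants of these letters, and bases outside the windows, were not searched, so a missing match does not show that a gene lacks the element.

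Some properties of the libraries touch every value below. Reads assigned to genes numbered 16769082 to 20633215 per library. Elavl1, which encodes HuR, was at 3.51, 2.36 and 2.99 FPKM in flox 1, 2 and 3. In HKO 1, 2 and 3 it was at 5.77, 4.28 and 4.91 FPKM, so the targeted transcript ran against the genotype labels. Its log2 fold change was 0.67 (SE 0.23, limma adjusted p = 0.208), so it was not called. Gene-level values do not show single exons, and loss of the part between the loxP sites was not assessed. Directions are therefore given between libraries labelled HKO and flox. Genes with any read numbered 16608 in flox 2 and 19920 to 22067 elsewhere, and flox 2 favoured short genes (slope of -0.142 on log2 gene length, against -0.0402 to 0.0488), a trend that was removed in an alternative fit. The 5 hepatocyte markers summed to 43018 to 56759 FPKM, most of it Alb (30115 to 45562), and single markers varied: Cps1 and Tdo2 were at 1419 and 1254 FPKM in flox 3, against 122 to 547 and 41.8 to 185 elsewhere, and Apoa1 was at 7954 to 14622 FPKM in flox and 5371 to 6892 in HKO. The 7 macrophage markers summed to 488 to 798 FPKM in flox and 292 to 408 in HKO. The groups did not overlap for 5 of the 7, all lower in HKO, beside 31.9% of all genes tested. The other markers were nearly level, Adgre1 at 10.7 to 14.9 and 10.2 to 14.5 FPKM and Vsig4 at 51.5 to 69.2 and 40.5 to 66.2. The 6 neutrophil markers summed to 23.0 to 48.5 FPKM in flox and 2.65 to 4.48 in HKO, with Ly6g at 0 throughout. Lymphocyte markers summed to 1.06 to 9.28 and 1.52 to 3.61 FPKM, stellate markers to 39.9 to 94.6 and 40.4 to 46.6, endothelial markers to 53.0 to 112 and 42.2 to 56.0, and bile duct markers to 5.79 to 10.3 and 12.3 to 24.0. Of the endothelial markers, Lyve1 was at 70.4 FPKM in flox 3 and 3.39 to 9.38 elsewhere. Kdr was higher in HKO (4.26 to 6.89, against 1.47 to 3.38), and Stab2, Clec4g and Pecam1 overlapped between groups. Pancreatic markers summed to 2802 FPKM in HKO 3 and to 27.4 or less elsewhere. The part of these other cells in the results was not tested, and in bulk tissue fewer cells of a type cannot be told apart from less RNA per cell.

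The 3 flox and 3 HKO values did not overlap for 5 of the 10 genes, Arntl, Npas2, Per2, Cry1 and Nr1d1. Without Npas2, which was not tested, this was 4 of 9, beside 31.9% of all genes tested. None of the 9 genes tested was called over all genes. The ratio of the HKO mean to the flox mean was 2.75 for Cry1, 2.62 for Per2 and 2.80 for Arntl, and 5.86 for Npas2, which was too low to test. Nr1d1 was 5.07 times as high in the flox mean as in the HKO mean. Per1, Per3, Cry2 and Nr1d2 overlapped between groups, and so did Clock, through flox 3.

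No member passed the threshold over all genes. Of the 10 members 9 averaged 0.5 FPKM or more and entered the test, and each of these also reached 0.5 FPKM in both group means. Limma, on log2(FPKM + 0.5) with Benjamini-Hochberg adjustment over the 13787 genes tested, called 0 of the 9 at an adjusted p of 0.05, where 0.0145% of all genes were called (2 genes). Limma-voom on whole reads recovered from the FPKM values called 0 members too. At an unadjusted p below 0.05 there were 5 of the 9 (Arntl, Clock, Per2 and Cry1 higher and Nr1d1 lower in HKO), beside 20.9% of all genes. Of the 9, 4 did not overlap between groups, beside 31.9% of all genes, a share near that of the background. The median log2 fold change was 0.36 over the 9 and 0.00 over all genes tested, and 0.18 and -0.03 after the length correction. For a single gene, an exact two-sided permutation test of 3 against 3 gives p = 0.1 at the least, and it gave that value for each gene whose groups did not overlap.

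**Figure D1:**
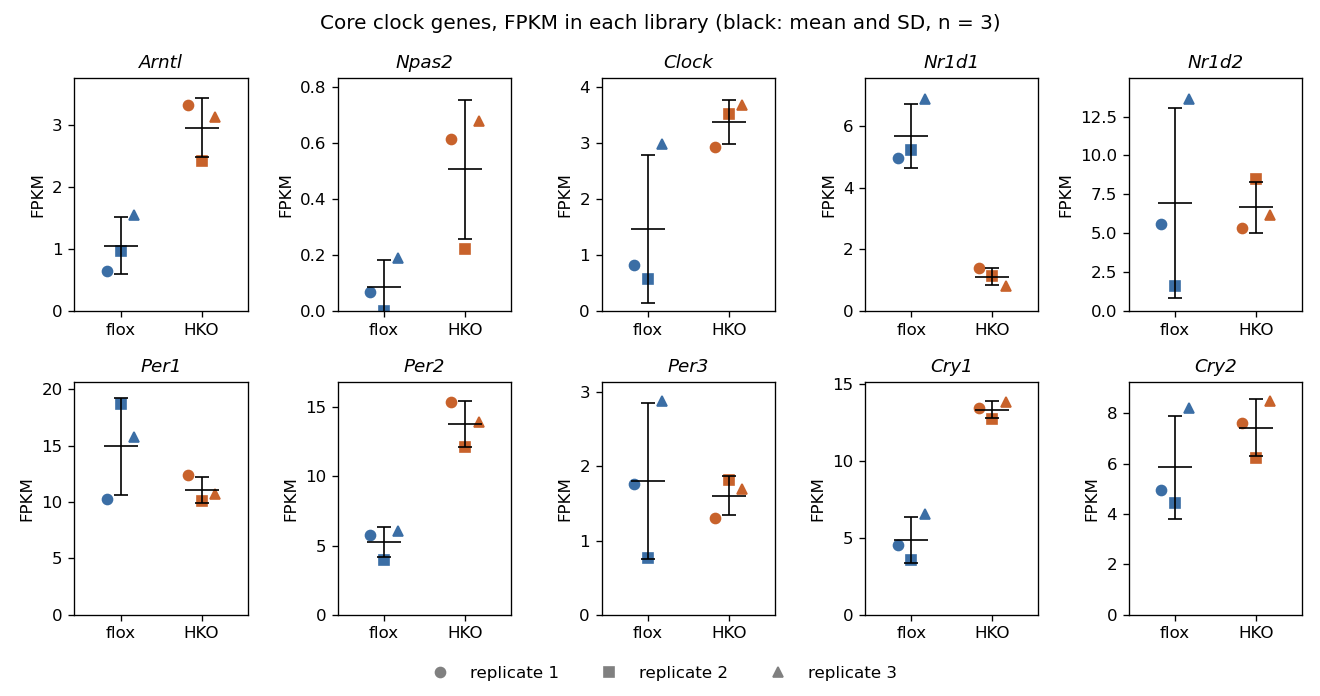
FPKM (vertical axes, each from 0) of the 10 core clock genes in the 3 flox (blue) and 3 HKO (orange) libraries, with the symbol giving the replicate number and black marks the mean and SD (n = 3). The groups are apart for Arntl, Npas2, Nr1d1, Per2 and Cry1 and overlap for the others, with flox 3 the highest flox library for every gene but Per1.

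Among the activators, Arntl encodes BMAL1, the partner shared by CLOCK and NPAS2. It was at 0.639, 0.975 and 1.55 FPKM in flox 1, 2 and 3 and at 3.31, 2.42 and 3.13 FPKM in HKO 1, 2 and 3. Every HKO library was thus above every flox library, with flox 3 the nearest. On the log2(FPKM + 0.5) scale the HKO libraries exceeded flox by 1.18 (SE 0.28, 95% interval 0.51 to 1.86, limma adjusted p = 0.16). After removal of the length trend it was 0.92.

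Clock was at 0.826, 0.575 and 2.98 FPKM in flox and at 2.94, 3.52 and 3.69 FPKM in HKO. Flox 3 lay at the level of HKO 1, and flox 1 and 2 were well below. Its log2 fold change had the same size, 1.18 (SE 0.45, interval 0.12 to 2.25, limma adjusted p = 0.221), and 0.77 after the length correction. Clock is the longest member, with 13727 bases in the tables.

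Npas2, which can stand in for Clock, had few reads in this tissue: 6, 0 and 14 reads in flox 1, 2 and 3, against 59, 22 and 71 in HKO 1, 2 and 3. As FPKM these were 0.0676, 0 and 0.191 against 0.614, 0.222 and 0.678, and the 0 of flox 2 allows a level of up to 0.0389 FPKM (3 reads, counting error alone). HKO 2 was only just above flox 3. With a mean of 0.296 FPKM it was not tested, and the ratio of the group means was 5.86, with no test.

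Among the receptors that repress the activators, Nr1d1 had the largest difference of the 9 tested members and the smallest p. It encodes REV-ERB alpha and lies on chromosome 11 from 98767932 to 98775333 (GRCm38.p6, minus strand). In flox 1, 2 and 3 it was at 4.95, 5.21 and 6.87 FPKM, against 1.39, 1.15 and 0.818 FPKM in HKO 1, 2 and 3, with means of 5.68 ± 1.04 (SD, n = 3) and 1.12 ± 0.289 (SD, n = 3). The lowest flox library was more than 3 times as high as the highest HKO library. The log2 fold change was -1.93 (SE 0.24, interval -2.51 to -1.36, limma adjusted p = 0.0984), and -1.85 after the length correction. By p it ranked 13 of the 13787 genes. The 3' end of Nr1d1 overlaps Thra, a thyroid hormone receptor gene on the other strand, over 263 bases (8.55%) of its exons, and no source used here tells whether counting used strand. Thra was at 2.86 to 3.61 FPKM in flox and 2.29 to 2.50 in HKO.

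Nr1d2, the gene for REV-ERB beta, the paralog of REV-ERB alpha, was at 5.58, 1.61 and 13.6 FPKM in flox 1, 2 and 3 and at 5.34, 8.48 and 6.18 FPKM in HKO, so the flox libraries lay on both sides of the HKO libraries. Limma gave a log2 fold change of 0.32 (SE 0.65, interval -1.23 to 1.87, limma adjusted p = 0.777), wide enough to hold a sizeable difference either way. Without flox 2 it was -0.39. Within each library Nr1d2 was 1.13, 0.309 and 1.98 times Nr1d1 in flox 1, 2 and 3, against 3.83, 7.39 and 7.55 times in HKO 1, 2 and 3, a ratio chosen after the values were seen.

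Among the PER repressors, Per2 was at 5.76, 3.99 and 6.04 FPKM in flox 1, 2 and 3 and at 15.4, 12.1 and 13.9 FPKM in HKO. The groups were wide apart, the lowest HKO library at 2 times the highest flox library. Its log2 fold change was 1.32 (SE 0.23, interval 0.77 to 1.88, limma adjusted p = 0.14), and 1.15 after the length correction.

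Per1, whose transcript normally peaks near that of Per2 and which also responds to glucocorticoids, was at 10.3, 18.7 and 15.8 FPKM in flox and at 12.4, 10.1 and 10.7 FPKM in HKO. Flox 1 fell among the HKO libraries and flox 2 and 3 were above them. This gave a log2 fold change of -0.38 (SE 0.27, interval -1.02 to 0.25, limma adjusted p = 0.409). Per2 was 0.559, 0.213 and 0.382 times Per1 in flox 1, 2 and 3, against 1.25, 1.20 and 1.29 times in HKO, a ratio also chosen after the values were seen. Per2 thus exceeded Per1 in every HKO library and stayed under it in every flox library.

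Per3, the PER gene that mouse rhythms depend on least, was at 1.76, 0.770 and 2.88 FPKM in flox and at 1.31, 1.81 and 1.69 FPKM in HKO. The HKO values lay inside the flox range. The log2 fold change of -0.03 (SE 0.38, interval -0.93 to 0.87, limma adjusted p = 0.971) changed sign under several settings.

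Of the cryptochromes, Cry1 is the stronger repressor of BMAL1 and CLOCK. It was at 4.51, 3.53 and 6.51 FPKM in flox 1, 2 and 3 and at 13.4, 12.7 and 13.8 FPKM in HKO 1, 2 and 3, with means of 4.85 ± 1.52 (SD, n = 3) and 13.3 ± 0.569 (SD, n = 3). The 3 HKO libraries were nearly level and all were above the flox libraries. Cry1 differed by 1.41 on the log2 scale (SE 0.25, interval 0.81 to 2.01, limma adjusted p = 0.141), and 1.45 after the length correction. By p Cry1 ranked 87, Per2 81 and Arntl 381 of the 13787 genes.

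Cry2, whose transcript swings little over the day, was at 4.94, 4.42 and 8.20 FPKM in flox and at 7.59, 6.23 and 8.47 FPKM in HKO. Flox 3 lay within the HKO range and flox 1 and 2 below it. Its log2 fold change was 0.36 (SE 0.28, interval -0.31 to 1.02, limma adjusted p = 0.455). Cry1 was under Cry2 in each flox library, at 0.794 to 0.913 times its level, and above it in each HKO library, at 1.63 to 2.04 times, again a ratio chosen after the values were seen.

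**Figure D2:**
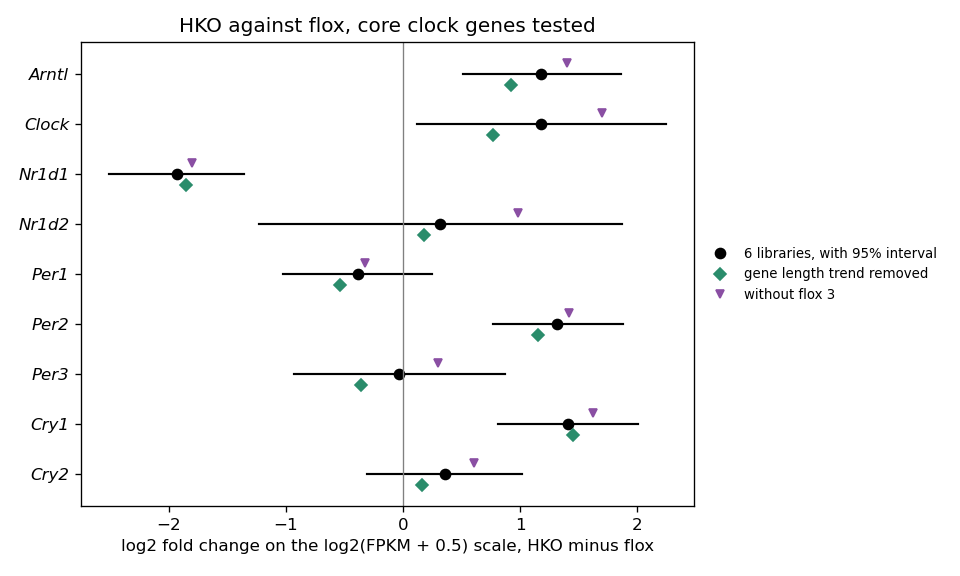
Log2 fold change of the 9 tested members on the log2(FPKM + 0.5) scale (horizontal axis, HKO minus flox), with 95% limma intervals in black, the value after removal of the gene length trend in green and the value without flox 3 in purple. The interval lies above 0 for Arntl, Clock, Per2 and Cry1, below 0 for Nr1d1 and spans 0 for the other 4.

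The library flox 3 decided the calls. Without it limma called 5 of the 9 members higher in HKO (Arntl, Clock, Per2, Cry1 and Cry2) and 1 lower (Nr1d1). The same fit called 40.4% of all genes, 21.0% higher and 19.4% lower. The log2 fold changes were then 1.4 for Arntl, 1.70 for Clock, 1.42 for Per2, 1.62 for Cry1, 0.61 for Cry2 and -1.80 for Nr1d1. Flox 1 and 2, the flox libraries left, carried the length trends given above. With the length trend removed and flox 3 left out, 4 were higher and 1 lower, beside 16.2% and 17.2% of all genes (33.4% in all), and Cry2 was no longer called. Leaving out any other single library called 0 members. Over the 6 libraries left out in turn, the log2 fold change ran from -2.05 to -1.79 for Nr1d1 and from 1.15 to 1.42 for Per2. It ran from 1.22 to 1.62 for Cry1, from 0.98 to 1.40 for Arntl and from 0.85 to 1.70 for Clock.

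Spread within groups was larger in flox. On the log2(FPKM + 0.5) scale 8 of the 9 tested members had a larger SD in flox than in HKO, Nr1d1 being the exception (0.23 against 0.26). Over all genes the share was 89.3%. The median SD of the members was 0.428 in flox and 0.184 in HKO, beside 0.524 and 0.146 over all genes.

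To ask which phase each library came closest to, the members were grouped by their usual peak in mouse liver: a midday arm (Nr1d1), a dusk arm (Nr1d2, Per1, Per2 and Per3), a late night arm (Cry1) and a dawn arm (Arntl, Npas2 and Clock). Each arm was scored in each library as the mean deviation from the 6-library mean on the log2(FPKM + 0.5) scale, with no test. These scores are relative to the 6 livers and give no hour. The HKO libraries shared a profile. The late night arm was the highest in all 3 (0.71, 0.64 and 0.76), followed by the dawn arm (0.58, 0.31 and 0.67) and the dusk arm (0.11, 0.20 and 0.15), and the midday arm was the lowest (-0.73, -0.93 and -1.25). Which of the late night and dawn arms differed more between groups depended on the pseudocount: at 0.1 it was the dawn arm. High Cry1 and Arntl with low Nr1d1 is the usual order of the later night. Per2, whose usual peak is earlier, lay above the mean in the HKO libraries about as far as Cry1 (0.83, 0.48 and 0.67), while Per1 was at -0.03, -0.31 and -0.23, so the dusk arm averages members that lay on both sides of the mean.

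In the flox libraries the midday arm was the highest in all 3, at 0.80, 0.87 and 1.24 in flox 1, 2 and 3. The late night arm was below the mean in each (-0.76, -1.07 and -0.28). Because the scores are centred on the 6 libraries, 3 per group, the flox mean of each arm is the HKO mean with its sign reversed. The flox and HKO profiles are thus a single contrast and not separate readings of phase. High Nr1d1 with low Cry1 and low Arntl is the usual order of the light phase. The flox livers were not alike beyond that. Flox 3 had its dusk arm at 0.42 and its dawn arm at 0.05, and it was the highest of the 6 libraries for Nr1d1, Nr1d2 and Per3. Flox 1 and 2 had the dusk arm at -0.19 and -0.69 and the dawn arm at -0.79 and -0.83. After the length correction flox 2 had -0.39 and -0.44 in these arms, and the order of the midday and late night arms was as before in each library.

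**Figure D3:**
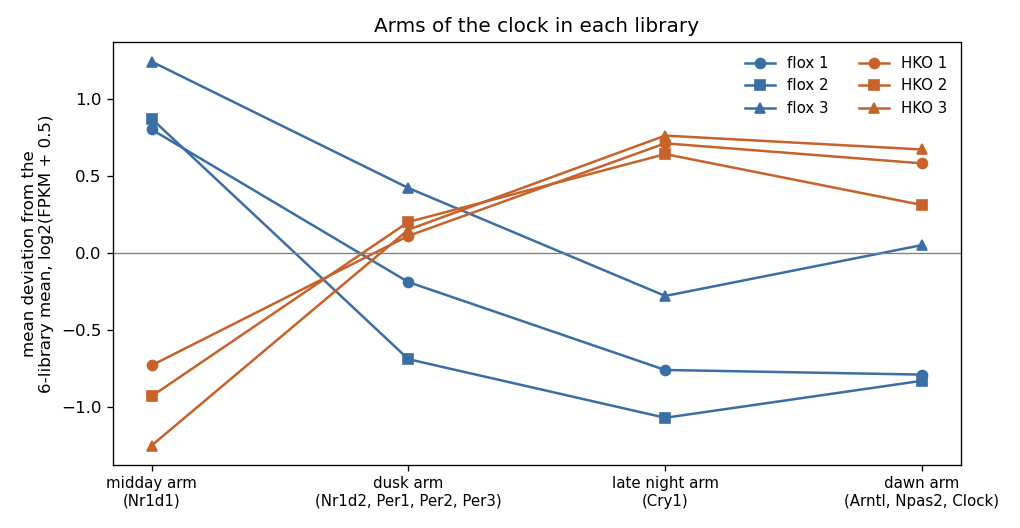
Mean deviation of each clock arm from the 6-library mean on the log2(FPKM + 0.5) scale (vertical axis) in the 3 flox (blue) and 3 HKO (orange) libraries, with arms in the order of their usual peak along the day. The flox lines start between 0.80 and 1.24 at the midday arm and the HKO lines between -1.25 and -0.73, and the lines cross before the late night arm.

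Ratios within a library do not depend on its scaling, though a length trend can move them. Arntl was 0.129, 0.187 and 0.226 times Nr1d1 in flox 1, 2 and 3, against 2.38, 2.11 and 3.82 times in HKO 1, 2 and 3. Activator and repressor thus stood in opposite order in the 2 groups, with no library between them. Arntl was higher and Nr1d1 lower in every HKO library, so a gap between groups in this ratio was fixed by the values above. Against Dbp, a transcript that BMAL1 and CLOCK drive strongly, Arntl was 0.0389, 0.0577 and 0.325 times in flox, against 2.07, 0.880 and 1.72 times in HKO. In this ratio flox 3 lay between flox 1 and 2 and the HKO libraries. Dbp too was lower in every HKO library, so the gap between groups was again fixed.

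**Figure D4:**
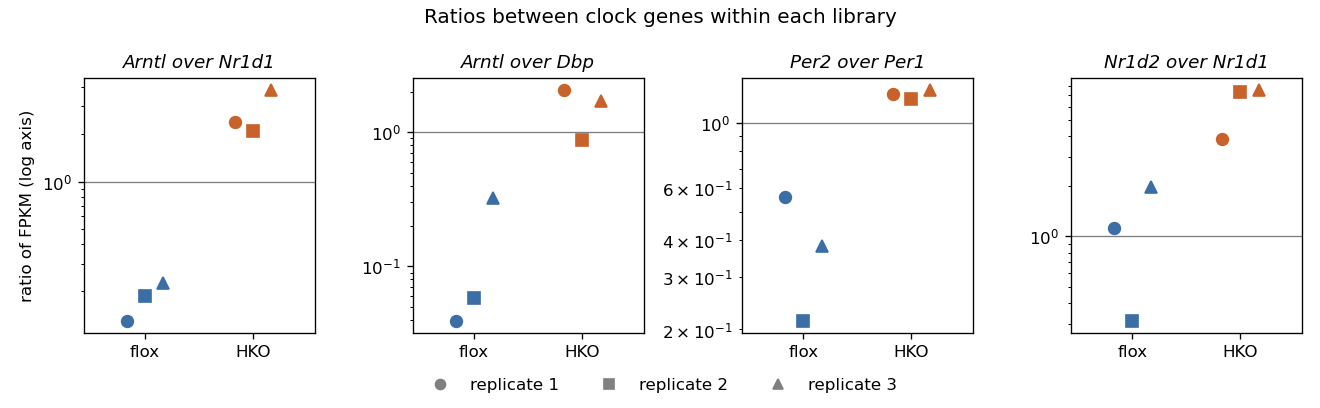
Ratios of FPKM between pairs of clock genes within each library (vertical log axes, grey line at 1) in flox (blue) and HKO (orange). Each ratio is higher in every HKO library than in any flox library, with Arntl over Nr1d1 at 0.129 to 0.226 in flox and 2.11 to 3.82 in HKO. The Arntl ratios pair genes whose groups are already apart in opposite directions. Per2 over Per1 and Nr1d2 over Nr1d1 were chosen after the values were seen.

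Nr1d2 and Per3 normally peak soon after Nr1d1, and the intervals of both spanned 0. Per1 and Per2 normally peak close together. The interval of Per2 lay above 0, and that of Per1 spanned 0, with a sign that turned under TPM scaling (0.02). Differences in response between these members were not tested. Because the groups were not labelled with an hour, genotype and the hour or feeding state at sacrifice cannot be told apart as sources of the difference in profile.

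The output genes of the clock, which carry its rhythm to other pathways, were also followed, with no score of phase. Of 9 listed, 8 were tested and 0 were called over all genes (limma). Of the 8, 2 did not overlap between groups, Dbp and Bhlhe40, beside 31.9% of all genes, and the median log2 fold change was -0.08. Dbp, a transcription factor that binds D-boxes, was at 16.4, 16.9 and 4.78 FPKM in flox 1, 2 and 3 and at 1.6, 2.75 and 1.82 FPKM in HKO. All flox libraries were above the HKO libraries, flox 3 by the least. Its log2 fold change was -2.21 (SE 0.49, interval -3.38 to -1.03, limma adjusted p = 0.159). Dbp shares 539 exon bases (18%) with Sphk2 on the other strand, which was at 15.7 to 24.1 FPKM in flox and 9.22 to 10.4 in HKO, so reads of these genes may be mixed.

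Bhlhe40, a repressor of E-box transcription, was at 14.4, 11.5 and 9.65 FPKM in flox and at 19.9, 19.0 and 20.9 FPKM in HKO. The groups were apart by 0.74 on the log2 scale (SE 0.22, limma adjusted p = 0.184). Tef and Hlf, relatives of Dbp, overlapped between groups, at 10.5 to 19.9 and 2.27 to 6.99 FPKM in flox and 11.2 to 14.3 and 4.19 to 6.67 in HKO. Nfil3, which competes with them for D-boxes and usually peaks opposite to Dbp, was at 15.3 to 31.7 FPKM in flox and 17.6 to 23.0 in HKO. Its log2 fold change of 0.00 had an interval of -0.75 to 0.76. Ciart, Usp2 and Wee1, targets of BMAL1 and CLOCK in mouse liver, overlapped as well. Bhlhe41 was under the filter, at 0 to 0.24 FPKM.

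**Figure D5:**
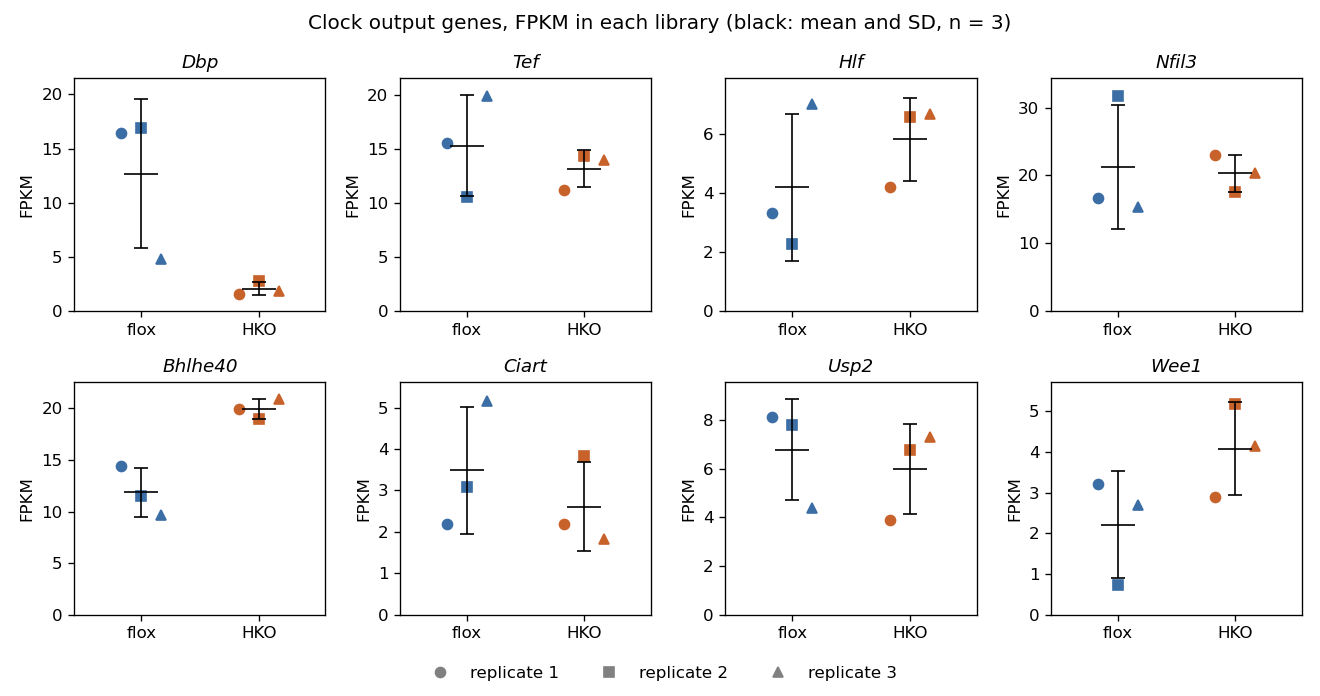
FPKM (vertical axes, each from 0) of the 8 tested clock output genes in the 3 flox (blue) and 3 HKO (orange) libraries, with black marks for the mean and SD (n = 3). Dbp is at 4.78 to 16.9 in flox and 1.6 to 2.75 in HKO, Bhlhe40 is the other gene whose groups are apart, and the remaining 6 overlap.

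Regulators of the clock, among them kinases and ubiquitin ligases that act on PER and CRY, and cofactors of REV-ERB, were followed through a list of 26 genes. Of these 24 were tested, 0 were called (limma), 20 had positive values (83.3%, beside 49.9% of all genes) and the median log2 fold change was 0.35. After the length correction 17 were positive and 7 negative, with a median of 0.22. The groups did not overlap for 2, Sirt1 and Hdac3, beside 31.9% of all genes. Csnk1d, a kinase that marks PER proteins for breakdown, was nearly level at 19.7 to 22.1 FPKM in flox and 19.3 to 21.5 in HKO (log2 fold change -0.04, interval -0.47 to 0.40). Nono, a PER cofactor, was at 14.5 to 25.7 and 20.4 to 26.1 FPKM. Nampt, which makes NAD and is a target of BMAL1 and CLOCK, was at 11.8, 4.04 and 38.0 FPKM in flox 1, 2 and 3, against 12.0, 18.6 and 18.2 in the HKO libraries. Flox 3 was the highest and flox 2 the lowest of the 6 libraries, as for Nr1d2. Without flox 3, 10 of the 24 were higher and 1 lower (limma), beside 21.0% and 19.4% of all genes.

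Genes that respond to glucocorticoids, to cAMP or to body temperature, cues that set the phase of the liver clock, were followed through 15 genes. All 15 were tested and 0 were called (limma), with 11 positive (73.3%, beside 49.9% of all genes) and a median log2 fold change of 0.23, or 0.36 after the length correction. The groups did not overlap for 3 of them, Crem, Hsp90aa1 and Hsph1, beside 31.9% of all genes. Tat, a tyrosine-degrading enzyme that glucocorticoids induce, was at 485, 586 and 2777 FPKM in flox 1, 2 and 3 and at 1483, 1344 and 1180 in HKO. Fkbp5, another glucocorticoid target, was at 21.7, 14.3 and 71.1 FPKM in flox 1, 2 and 3, against 18.6, 24.2 and 32.8 in the HKO libraries. In both genes flox 3 was the highest of the 6 libraries. This did not hold for Tsc22d3, at 35.6 FPKM in flox 3 and 29.9, 43.0 and 39.2 in HKO 1, 2 and 3. Nor did it hold for Sgk1, at 23.5 FPKM in flox 3 and 33.6, 32.9 and 19.7 in HKO. Zbtb16 was highest in flox 3 by little (12.9 FPKM, against 12.7 in HKO 3). The chaperone Hspa8 was at 214 to 420 FPKM in flox and 213 to 321 in HKO, and Hsp90aa1, another chaperone, at 27.6 to 42.2 and 47.8 to 73.5. Without flox 3, 5 of the 15 were higher and 0 lower (limma), Tat, Sgk1, Tsc22d3, Zbtb16 and Hsph1, beside 21.0% and 19.4% of all genes.

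Among 9922 other protein-coding genes that averaged 1 FPKM or more, likeness to Arntl and to Nr1d1 was measured over the 6 libraries as the root mean square difference of the centred log2(FPKM + 0.5) values. The 5 genes nearest to Arntl were Kbtbd7 (0.0732), Cmtr2 (0.133), Zfp770 (0.135), Pik3r1 (0.15) and Zfp568 (0.163). Kbtbd7 was at 0.990, 1.13 and 1.93 FPKM in flox 1, 2 and 3, against 4.08, 3.09 and 3.83 in the HKO libraries. Pik3r1 encodes a regulatory subunit of PI 3-kinase. Nearest to Nr1d1 were Cd14 (0.221), Orm1 (0.222), Cda (0.246), Ten1 (0.252) and Grhpr (0.259). Cd14 encodes a co-receptor for bacterial lipopolysaccharide and Grhpr an enzyme that clears glyoxylate. Orm1, an acute-phase plasma protein gene, was at 1232, 1250 and 1885 FPKM in flox 1, 2 and 3, against 337, 480 and 333 in the HKO libraries.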

How the data were processed

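The authors deposited FPKM values, 1 table per group, per the file headers, with the same genes in both. Reads were handled with TopHat2 and HTSeq 0.6.1 on GRCm38.p6, per the submitters' processing notes. The gene lengths, in bases, were also deposited by the authors. FPKM times length gave whole multiples of 1 read for 100% of values above 0 in each library (tolerance 0.01 of a read), so reads were recovered. Values were analysed as log2(FPKM + 0.5), which understates changes of low genes. Genes averaging 0.5 FPKM or more were fitted together with limma 3.58.1 in R 4.3.3 (group as the only term, mean-variance trend, two-sided tests, Benjamini-Hochberg adjustment over 13787 genes). The length correction subtracted each library's lowess trend on log2 length (span 0.3). The code was tested on simulated data. Figures were drawn with matplotlib 3.10.9.

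Groups and replicate numbers are from the sample titles. The p-values measure the spread between these mice, for which no litter, batch or date is given. The members and lists were chosen with earlier results of these data known. All 10 members are named, with the clock outputs above 0.5 FPKM, the 4 most abundant regulators and cue genes, and the 5 genes nearest to Arntl and Nr1d1. 1 gene that this rule names is not reported here. Named after their values were seen were Thra, Sphk2, Bhlhe41, the single markers of hepatocytes, macrophages and endothelial cells, and the regulators and cue genes whose groups did not overlap or that were called without flox 3. Alternatives were pseudocounts of 0.1 and 1, no filter or one at 2 FPKM, 3 scalings (TPM, upper quartile and quantile), a replicate block, the length correction alone and with that block, robust or untrended variances, only protein-coding genes, limma-voom and leaving out libraries. Leaving out flox 2 with HKO 3, and flox 3 with length correction, were added after the data were seen.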

Additional observations from a re-analysis of the deposited data

How the results depend on the processing

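Leaving out single libraries moved the counts of calls, through flox 3 alone. Over the 6 such fits the core clock members called ranged from 0 to 5 higher and 0 to 1 lower in HKO, the regulators from 0 to 10 and 0 to 1, the outputs from 0 to 2 and 0 to 1, and the cue genes from 0 to 5 and 0 to 0. Without flox 3 and with the length trend removed they were 4 and 1, 9 and 2, 0 and 1, and 5 and 1. Every other alternative kept all these counts at 0. The arms, HKO minus flox on the log2(FPKM + 0.5) scale, were 1.04 (dawn), -1.93 (midday), 0.31 (dusk) and 1.41 (late night). A pseudocount of 0.1 gave 1.56 for dawn, -2.26 for midday and 1.48 for late night, so dawn then exceeded late night. A pseudocount of 1 gave -1.65 for midday. The dusk value was 0.04 without flox 2, 0.60 without flox 3, 0.67 under TPM scaling and 0.11 with the length trend removed. TPM scaling gave -1.60 for midday and 1.79 for late night, and it moved the median of all genes by 0.34. Upper quartile scaling moved that median by 0.11. Per1 turned to 0.02 under TPM scaling, which is -0.32 relative to the shifted median.

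Per3 turned sign from -0.03 to 0.00 (pseudocount 0.1), 0.28 (TPM), 0.08 (upper quartile), 0.02 (limma-voom), 0.02 (without flox 1), 0.30 (without flox 3) and 0.08 (without HKO 1), in a range of -0.40 to 0.30 over single libraries left out. Nr1d2 turned from 0.32 to -0.39 without flox 2 (up to 0.98 without flox 3) and to -0.35 without flox 2 and HKO 3. The cause was not tested. Arntl, Clock, Per2, Cry1, Cry2 and Nr1d1 kept their direction in all 23 settings, with log2 fold changes of 0.92 to 1.58, 0.77 to 1.70, 1.15 to 1.71, 1.19 to 1.79, 0.10 to 0.74 and -2.35 to -1.60. Their adjusted p ranged from 0.0147 (0.0456 for Cry2) to between 0.619 and 0.933. Npas2 was fitted without the filter only (log2 fold change 0.76, limma adjusted p = 0.276). Deviations of libraries with the same replicate number correlated at -0.0415, -0.0903 and 0.0704, so the numbers were not taken as pairs. The fit with the replicate block called 0 members and 1 gene in all.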
